A study of Sus scrofa with 50 samples.

Results

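The loin muscle of Korean minipigs (Sus scrofa) was compared between animals of the ET type and animals of the L type. ET and L are the labels' own names and are not spelled out in the sources used here, nor are the age, sex and feeding of the animals. The comparison took 9 of the 50 libraries of the study, which sampled 5 tissues of 10 pigs. The ET loin group held pigs S0235, S0242, S0276, S0309 and S0326, and the L loin group held pigs S0349, S0377, S0384 and S0385. Another L library labelled loin, from pig S0355, had a high level of an adipocyte marker and almost none of a muscle marker, and was left out of the main comparison. Each animal gave 1 library per tissue, so the p-values measure the spread between animals of 1 type. The labels give no treatment, and all animals are described alike except for their type. Values of single animals are listed in the order of animal numbers just given.

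Skeletal muscle adjusts its mass by balancing protein synthesis against breakdown. Insulin and IGF1 signalling holds the FoxO transcription factors out of the nucleus, whereas fasting, glucocorticoids, disuse and loss of nerve contact allow FoxO and the glucocorticoid receptor to switch on ubiquitin ligases and autophagy genes. Pig loin is a back muscle made mostly of fast, glycolytic fibres, and tenderloin is a more oxidative muscle. Around the fibres lies a collagen matrix made by fibroblasts and fibro-adipogenic progenitors.

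The values were deposited TPM (a length-normalised share of a library, scaled so that each library sums to 1000000) of assembled transcripts, summed here over transcripts whose best Swiss-Prot match was the same protein entry. TPM keeps no read depth, so depth is unknown. Between 11670 and 12255 genes reached 1 TPM in ET loin, and between 11796 and 12204 did in L loin. The 9 libraries fitted their label: 10 skeletal muscle markers summed to 78930.3 to 95042 TPM in ET and 45899 to 78028.5 TPM in L loin, and the muscle creatine kinase CKM stood at 16286 to 30279 TPM. The loin library of S0355 had CKM at 0.528 TPM and the adipocyte hormone ADIPOQ at 1139 TPM, while the backfat library of the same pig had CKM at 22552 TPM. The markers thus went against both labels of this pig, and whether the loin and backfat labels were exchanged was not tested. Values given with S0355 added therefore include a library with almost no CKM. Its r with the 9 others across genes was 0.44 to 0.54, against 0.89 to 0.97 among the 9. The ET library S0235 was the only 1 of the 9 whose mean r with tenderloin libraries of other animals (0.936) was as high as that with the other loin libraries (0.936). It was kept.

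With deposited TPM more genes were lower than higher in ET loin, and that split depended on the scaling. With limma on log2(TPM + 1), 644 of 12250 genes were higher in ET loin (5.26%) and 2704 were lower (22.1%) at a Benjamini-Hochberg adjusted p under 0.05. The median log2 fold change of all genes, ET minus L, was -0.22. In ET loin 25.0% to 28.4% of the TPM belonged to the 10 most abundant genes, against 18.5% to 24.2% in L loin. This difference of 4.70 percentage points had an exact permutation p of 0.0159, the smallest that 5 against 4 libraries allow, and 0.0635 adjusted over 4 library summaries. Whether this share bears on the split of higher and lower genes was not tested. Median-ratio scaling divides each library by the median ratio of its genes to their geometric means. Its factors were 0.876 to 0.984 in ET and 1.01 to 1.24 in L loin. It moved the median of all genes by 0.19, to -0.03, and gave 1108 higher (9.05%) and 1411 lower genes (11.5%) of 12243. The same scaling with its factors taken from genes of at least 5 TPM, an alternative chosen after seeing the data, turned the split round, with 1454 higher and 959 lower. All 644 genes higher with deposited TPM were also higher with scaling, all 1411 genes lower with scaling were also lower with deposited TPM, and 0 genes were called in opposite directions. A gene called on both scales was thus higher in 644 cases and lower in 1411. Fold changes given from here on are from deposited TPM on the log2(TPM + 1) scale, which understates the change of genes near 1 TPM, and counts with scaling stand beside them.

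The count depended on single animals. It lay between 296 and 746 genes higher and between 1475 and 2794 lower when 1 of the 9 libraries was left out, with the lowest counts without the L library S0377. Leaving out S0326 (346 higher and 1667 lower), S0377 (296 and 1475) or S0385 (425 and 1774) lowered both counts more than 1.5-fold. The calls shared by all 9 of these fits numbered 258 higher and 1328 lower. With the S0355 library added, 47 of 13051 genes were higher (0.36%) and 487 lower (3.73%), all among the calls made without it. Of 145 genes called without S0355 and taken by the naming rule, 32 passed with it, 94 did not, and 19 had the opposite sign, among them the muscle genes RYR1, DES and KLHL41. In 448 genes (3.66%) every ET library lay above every L library, and in 2439 genes (19.9%) every ET library lay below.

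**Figure D1:**
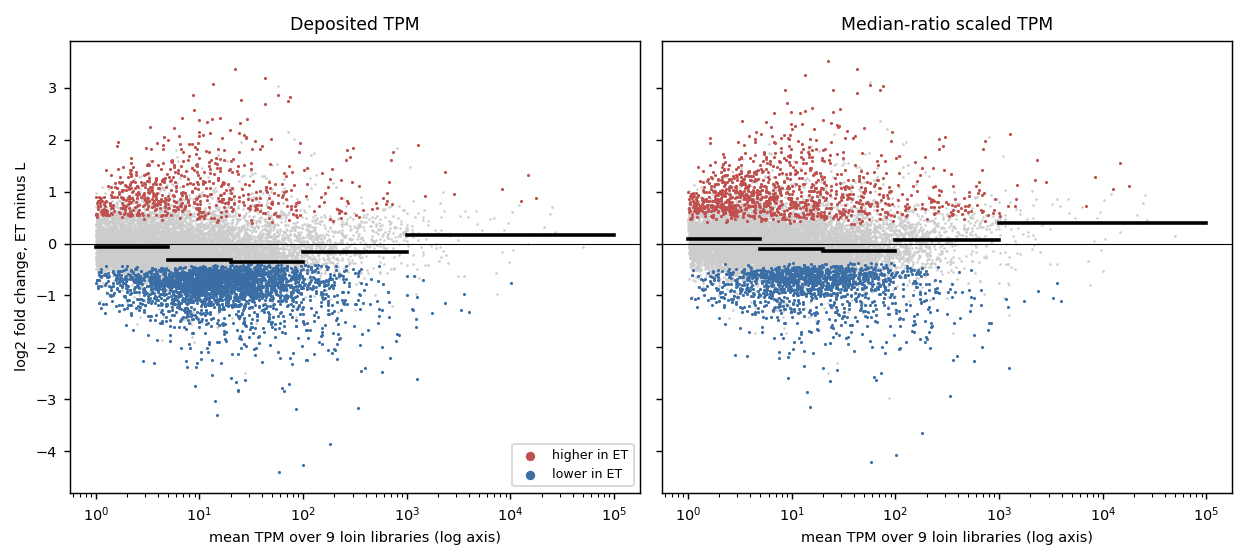
Each point is 1 of the genes tested, at its mean TPM over the 9 loin libraries (log axis) and its log2 fold change of ET minus L, from deposited TPM (left) and after median-ratio scaling (right). Red points were higher and blue points lower in ET loin at an adjusted p under 0.05, and black bars are medians within 5 ranges of mean TPM. The bars run from -0.36 for genes of 20 to 100 TPM to 0.16 for genes of at least 1000 TPM with deposited TPM, and from -0.14 to 0.39 with scaling.

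Of the 38 gene lists compared, that of protein breakdown had the most members lower in ET loin. The lists and their members were chosen with earlier results of these data known, so this ranking is no independent test. Counts in all lists stand against shares over all genes of 5.26% higher and 22.1% lower (9.05% and 11.5% with scaling). Of 24 genes of ubiquitin ligases, autophagy and their regulators tested, 16 were lower in ET and 0 were higher (15 lower with scaling), with a median log2 fold change of -1.23 (-1.01 with scaling), where all genes had -0.22 (-0.03). In 13 of the 24 every ET library lay below every L library, which was so for 19.9% of all genes. The list's summed level was 2919.9 to 3546 TPM in ET loin and 5191 to 14472.5 TPM in L loin. Leaving out single libraries left 15 to 20 of them lower.

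Among the ligases, FBXO32 (atrogin-1, a muscle ubiquitin ligase that rises in atrophy) stood at 128, 148, 135, 194 and 175 TPM in ET loin and at 379, 1348, 505 and 2176 TPM in L loin. The groups did not overlap, and the L animals themselves spread widely, with S0377 and S0385 high (log2 fold change -2.48, SE 0.44, adjusted p = 0.00444, limma). TRIM63 (MuRF1, a ligase for myosin and other thick filament proteins) stood at 178, 136, 357, 162 and 180.1 TPM in ET loin and at 278, 866, 776 and 3280.3 TPM in L loin. Here S0276 lay above S0349, so the groups overlapped by 1 pair of animals (log2 fold change -2.21, SE 0.56, adjusted p = 0.0173). FBXO32 and TRIM63 were singled out for their role after their values had been seen. FBXO31, the substrate-binding subunit of another ligase, was much tighter, at 50.4 ± 3.98 TPM in ET loin and 117 ± 12.4 TPM in L loin (SD, n = 5 and n = 4 here and throughout; log2 fold change -1.20, SE 0.13, adjusted p = 0.00130). FBXO30, a ligase known from denervation atrophy in mice, averaged 7.57 TPM in ET and 43.04 TPM in L loin (-2.13), and TRIM54 (MuRF3) averaged 218 TPM in ET and 516 TPM in L loin (-1.25).

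The autophagy receptor SQSTM1 (p62), which carries ubiquitin-marked cargo, stood at 459.8, 341, 514, 377.1 and 337 TPM in ET loin and at 1142, 1411, 1239 and 1677 TPM in L loin. All 5 ET values lay well under the lowest L value (log2 fold change -1.75, SE 0.19, adjusted p = 0.00130). MAP1LC3B, the membrane protein to which such cargo is tethered, stood at 136, 136, 165, 130.2 and 115 TPM in ET loin and at 300.4, 480.2, 304 and 517 TPM in L loin (log2 fold change -1.51, SE 0.20, adjusted p = 0.00203). ULK1, the kinase that starts autophagy, averaged 26.9 ± 5.95 TPM in ET loin and 88.2 ± 50.8 TPM in L loin (-1.54), and GABARAPL1 averaged 16.9 ± 4.997 TPM in ET loin and 108 ± 115 TPM in L loin (-2.09), although GABARAPL1 did not pass without S0377. RETREG1, the receptor for autophagy of the endoplasmic reticulum and 1 of the 15 genes with the largest drop, stood at 44.2, 47.3, 22.8, 36.5 and 40.96 TPM in ET loin and at 70.3, 669, 148 and 1951 TPM in L loin (log2 fold change -3.17, SE 0.77, adjusted p = 0.0145). Its L values spanned S0349 at the low end and S0385 at the high end. The list also held CAST (calpastatin), which inhibits the calpain proteases and so opposes breakdown, and it too was lower, at 35.1 ± 4.51 TPM in ET loin and 66.5 ± 8.66 TPM in L loin (log2 fold change -0.90, SE 0.15, adjusted p = 0.00356). The transcription factors FOXO3 (-1.92) and FOXO4 (-0.81) were lower, and FOXO1 was at 17.4 TPM in ET and 45.5 TPM in L loin (-1.20, adjusted p = 0.0886). Genes that did not pass were CAPN3, BNIP3, PINK1, DDIT4, CTSL, TRIM55 and DDIT4L, and DDIT4L had the highest value of the list at 0.56.

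**Figure D2:**
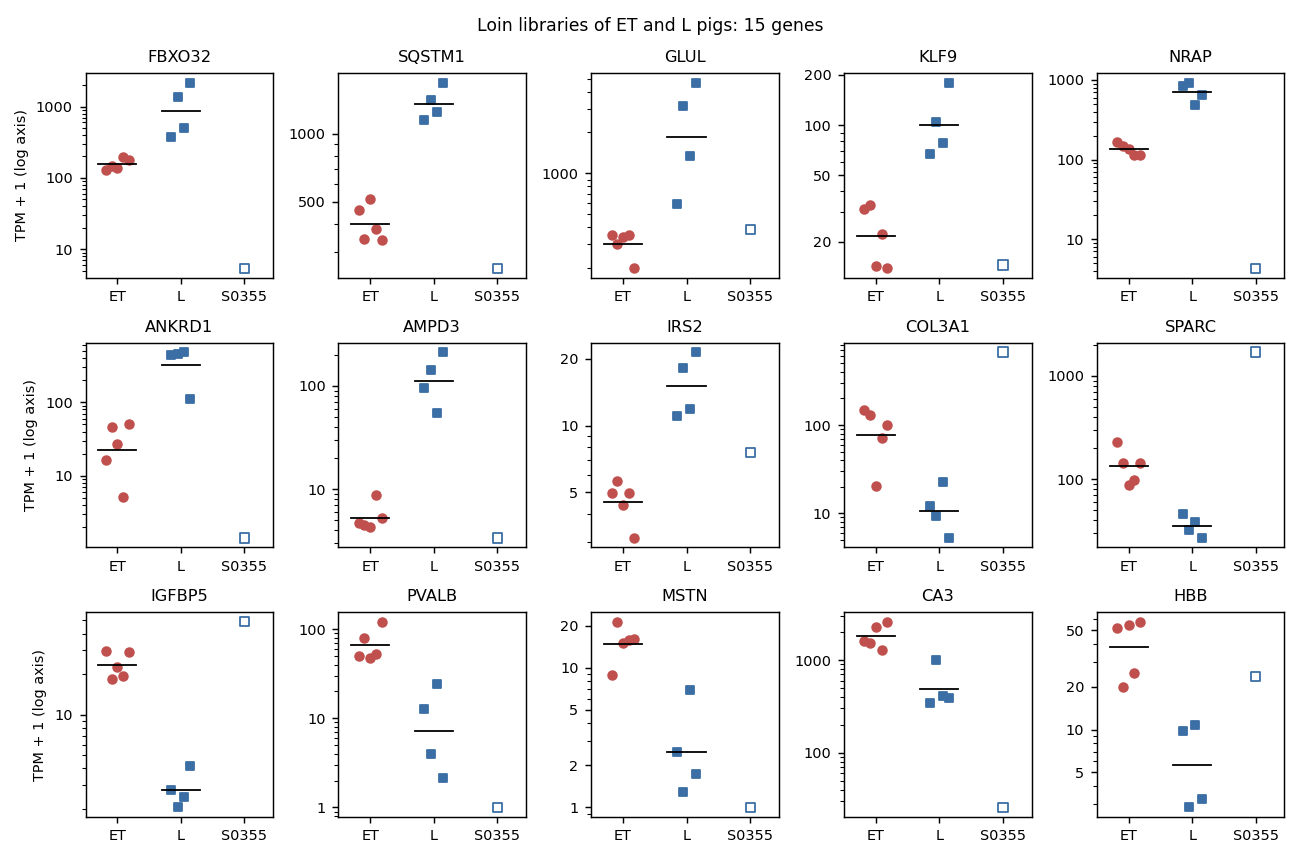
Each panel shows 1 gene, with TPM + 1 on a log axis for the 5 ET loin libraries (red circles), the 4 L loin libraries (blue squares) and the L library of S0355 that was left out (open square). Bars are means on the log scale. FBXO32, SQSTM1, GLUL, KLF9, NRAP, ANKRD1, AMPD3 and IRS2 lie lower in every ET library than in every L library, and of the 7 other genes only COL3A1 overlaps, through ET animal S0276.

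Genes that respond to glucocorticoids or to FoxO were lower in ET loin as well. Of 23 tested, 14 were lower and 0 higher (11 lower and 1 higher with scaling), with a median of -1.32 (-1.10 with scaling), and 10 to 15 were lower when single libraries were left out. The list shares KLF15, FOXO1, FOXO3 and DDIT4 with the breakdown list. KLF9, a transcription factor induced by the glucocorticoid receptor, stood at 30.2, 32.2, 13.3, 21.2 and 12.8 TPM in ET loin and at 65.9, 103, 77.3 and 179 TPM in L loin. The groups did not overlap (log2 fold change -2.21, SE 0.34, adjusted p = 0.00320). GLUL (glutamine synthetase, which exports nitrogen from wasting muscle as glutamine) stood at 351, 301, 336, 349.9 and 198 TPM in ET loin and at 589.7, 3114, 1341 and 4671 TPM in L loin. Its highest ET value was below its lowest L value, that of S0349 (log2 fold change -2.61, SE 0.50, adjusted p = 0.00585). A second protein entry of GLUL, with fewer transcripts, had 23.8 TPM in ET and 134 TPM in L loin (-2.71, adjusted p = 0.00927). IRS2, the insulin receptor substrate that FoxO induces, stood at 3.96, 4.64, 3.41, 3.96 and 2.12 TPM in ET loin and at 10.1, 17.3, 10.8 and 20.5 TPM in L loin (log2 fold change -1.73, SE 0.24, adjusted p = 0.00236). ZBTB16 averaged 26.5 ± 6.74 TPM in ET loin and 80.5 ± 34.1 TPM in L loin (log2 fold change -1.51, SE 0.27, adjusted p = 0.00476).

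Other members of that list had wider spreads. The anti-inflammatory glucocorticoid target TSC22D3 (-1.55), the FoxO target DEPP1 (-1.96) and the transcription factor CEBPD (-2.21) did not overlap between groups. FKBP5, the chaperone that restrains the glucocorticoid receptor, averaged 89.7 ± 53.3 TPM in ET loin and 361 ± 199 TPM in L loin (-1.93, adjusted p = 0.0136), and ET animal S0242 at 183 TPM lay above L animal S0349 at 121 TPM. PDK4, which blocks entry of pyruvate into the citrate cycle, averaged 245 ± 157 TPM in ET loin and 993 ± 559.6 TPM in L loin (-1.99) but did not pass without S0309, S0377 or S0385. The glucocorticoid receptor NR3C1 itself was at 16.6 TPM in ET and 25.2 TPM in L loin (-0.61, adjusted p = 0.0526), and HSD11B1, which regenerates active glucocorticoid, was at 43.2 TPM in ET and 21.996 TPM in L loin (0.90, adjusted p = 0.0615). SGK1, another glucocorticoid target, was at 18.8 TPM in ET and 14.5 TPM in L loin (0.45, adjusted p = 0.319).

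The L animals were graded in these 2 lists. As a mean deviation from the 9-library mean on the log2 scale, the breakdown genes stood at 0.06 in S0349 and at 1.45 in S0385, and the glucocorticoid and FoxO genes at 0.01 in S0349 and at 1.22 in S0385. The ET libraries lay between -0.69 and -0.40 for the first list and between -0.58 and -0.40 for the second. All ET libraries were thus below all L libraries in both lists, with S0349 nearest to them.

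**Figure D3:**
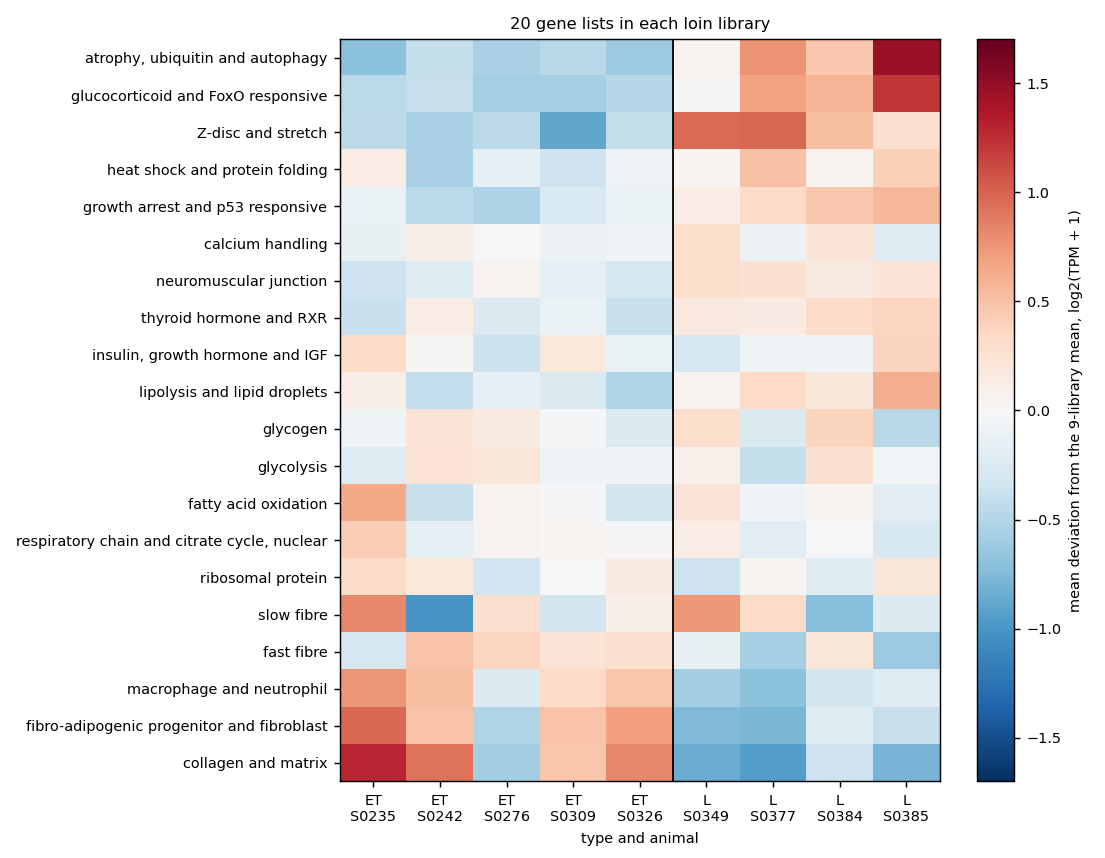
Rows are 20 gene lists and columns the 5 ET and 4 L loin libraries, with colour for the mean deviation of the list's tested genes from the 9-library mean on the log2(TPM + 1) scale. Breakdown, glucocorticoid, and Z-disc and stretch genes are below the mean in all 5 ET libraries, and matrix genes are above it in 4 of the 5, S0276 being the exception at -0.59.

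Genes of the insulin, growth hormone and IGF axis changed in both directions. Of 25 tested, 6 were higher and 9 lower in ET loin (7 and 6 with scaling), with a median of -0.28 (-0.12 with scaling). All 4 receptors on the list were lower. GHR (growth hormone receptor) averaged 43.7 ± 9.096 TPM in ET loin and 139 ± 55.2 TPM in L loin (log2 fold change -1.58, SE 0.27, adjusted p = 0.00389), INSR (insulin receptor) 4.25 ± 1.06 TPM in ET loin and 14.02 ± 5.82 TPM in L loin (-1.45), IGF1R 1.71 ± 0.554 TPM in ET loin and 5.03 ± 1.91 TPM in L loin (-1.13) and IGF2R, which clears IGF2, 13.4 ± 5.24 TPM in ET loin and 50.6 ± 23.8 TPM in L loin (-1.79). In each of these 4 genes the groups did not overlap, and each passed in all 9 fits that left out 1 library. The kinases AKT1 (-0.62) and AKT2 (-0.57) and the adaptor GRB10 (-0.79) were lower with deposited TPM, did not pass with scaling, and passed in 3, 2 and 4 of the 9 fits that left out a library.

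IGF1 and 4 of the 6 IGF-binding proteins on the list were higher, and 1, IGFBP3, was lower. IGFBP5, a main IGF-binding protein of muscle, stood at 28.5, 17.4, 21.5, 18.2 and 28.4 TPM in ET loin and at 1.79, 1.05, 1.47 and 3.18 TPM in L loin. All 5 ET animals lay above all 4 L animals, with 12.2-fold between the means (log2 fold change 3.07, SE 0.24, adjusted p = 0.000289). IGF1 averaged 2.73 ± 1.65 TPM in ET loin and 0.258 ± 0.0769 TPM in L loin (1.43, adjusted p = 0.0112). IGFBP7 (2.69), IGFBP6 (2.05) and IGFBP4 (1.16) were also higher, and of these IGFBP4 did not pass without S0377. IGFBP3 went the other way, at 2.603, 6.495, 1.77, 5.902 and 1.81 TPM in ET loin and at 9.57, 40.9, 8.66 and 103 TPM in L loin (log2 fold change -2.59, SE 0.65, adjusted p = 0.0163), and did not pass without S0377. MSTN (myostatin, the secreted inhibitor of muscle growth) stood at 7.87, 20.3, 14.1, 14.8 and 14.9 TPM in ET loin and at 1.501, 0.292, 5.9003 and 0.7298 TPM in L loin. All 5 ET animals lay above all 4 L animals (log2 fold change 2.57, SE 0.43, adjusted p = 0.00384), and FST (follistatin, which binds and neutralises myostatin) was higher too, at 8.17 ± 2.699 TPM in ET loin and 3.22 ± 1.24 TPM in L loin (1.104, adjusted p = 0.0188), though not without S0377.

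A list of genes of the Z-disc, which anchors the thin filaments, and of stretch also held genes whose proteins act outside the Z-disc. Its genes were lower in ET loin in 9 of 17 cases and higher in 0, on both scales, with a median of -1.28 (-1.06 with scaling). The list's summed level was 9443 to 15001 TPM in ET and 20014 to 28450.0 TPM in L loin, and 9 or 10 genes were lower whichever library was left out. ANKRD1 (CARP, a titin-binding protein that rises with stretch and damage) stood at 15.4, 44.4, 26.1, 4.06 and 50.1 TPM in ET loin and at 438, 452, 485 and 109.9 TPM in L loin. L animal S0385 was far below the other 3 and still above all ET animals (log2 fold change -3.87, SE 0.66, adjusted p = 0.00401). NRAP, which helps assemble thin filaments at the membrane, stood at 163.3, 148, 135, 114 and 111 TPM in ET loin and at 836, 927, 487 and 641 TPM in L loin. The lowest L value, in S0384, was about 3 times the highest ET value, in S0235 (log2 fold change -2.39, SE 0.21, adjusted p = 0.000318). KLHL40 and KLHL41, which stabilise thin filament proteins, averaged 41.1 ± 10.01 TPM in ET loin and 168 ± 60.8 TPM in L loin (-1.97) and 2041 ± 319 TPM in ET loin and 4980.2 ± 927 TPM in L loin (-1.28). MUSTN1, a small nuclear protein of regenerating muscle, averaged 361 ± 129.5 TPM in ET loin and 1311 ± 405 TPM in L loin (log2 fold change -1.88, SE 0.28, adjusted p = 0.00281), and the cross-linker FLNC (filamin C) averaged 295 ± 112 TPM in ET loin and 815 ± 82.4 TPM in L loin (-1.53). TCAP (telethonin, the cap of titin), PDLIM3 and XIRP1 were lower by similar amounts (-1.32, -1.34 and -1.81), and none of these 3 groups of values overlapped. CSRP3 (muscle LIM protein), kept in the slow fibre list, was at 133, 17.9, 139.6, 119 and 234 TPM in ET loin and at 1271, 678, 286 and 371 TPM in L loin (log2 fold change -2.46, SE 0.66, adjusted p = 0.0210) and did not pass without S0377. The 8 members that did not pass included the structural proteins MYOT (-0.41), MYPN (-0.32) and LDB3 (-0.10), all of which overlapped between the types. DES (desmin, the intermediate filament that links Z-discs) was lower, at 343 ± 86.7 TPM in ET loin and 858 ± 332 TPM in L loin (log2 fold change -1.28, SE 0.25, adjusted p = 0.00682).

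Among fibre-type genes, part of the fast set was higher in ET loin. Of 19 fast fibre genes 6 were higher and 0 lower on both scales, with a median of 0.53 (0.75 with scaling). That count was 1 without S0242, S0326, S0377 or S0385, and 3 without S0276, S0309 or S0349. PVALB (parvalbumin, the calcium buffer of fast fibres) passed in all 9 of these fits, at 49.2, 78.4, 46.1, 52.2 and 121 TPM in ET loin and at 11.6, 2.94, 23.5 and 1.16 TPM in L loin. ET animals were all above L animals, of which S0384 was the highest (log2 fold change 3.19, SE 0.61, adjusted p = 0.00581). TNNC2 and MYLPF, the fast troponin C and fast regulatory light chain, averaged 15503 ± 2765 TPM in ET loin and 8916 ± 2604 TPM in L loin (0.83) and 22277 ± 5164 TPM in ET loin and 12229 ± 3822 TPM in L loin (0.88), MYL1 3609 TPM in ET and 1911 TPM in L loin (0.96) and the calcium store protein CASQ1 3107 TPM in ET and 1338 TPM in L loin (1.38). MYH2, the myosin of fast oxidative fibres, was at 813, 2051, 1964, 2702 and 2075 TPM in ET loin and at 913, 928, 1088 and 890.3 TPM in L loin, with S0235 below every L animal (log2 fold change 0.91, SE 0.30, adjusted p = 0.0451). Myosin heavy chains are near-identical, so their transcripts may be divided between entries. The fastest myosin MYH4 was at 14849 TPM in ET and 8451 TPM in L loin (0.74, adjusted p = 0.164), MYH1 at 9568 TPM in ET and 7670.3 TPM in L loin (0.26, adjusted p = 0.497) and ACTN3, the fast-fibre alpha-actinin, at 3161 TPM in ET and 3032 TPM in L loin (0.06, adjusted p = 0.888).

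Of 16 slow fibre genes, CA3 was higher and ANKRD2 and CSRP3 lower, again on both scales, with a median of 0.10 (0.32 with scaling), and the 2 lower genes did not pass without S0377. CA3 (carbonic anhydrase of slow fibres) stood at 1601, 1539.8, 2289.7, 1280.1 and 2598 TPM in ET loin and at 343, 1000.5, 413 and 386 TPM in L loin (log2 fold change 1.89, SE 0.33, adjusted p = 0.00415), and the groups did not overlap. The contractile members were at similar levels, with MYH7, the slow myosin, at 1307 ± 699 TPM in ET loin and 1611 ± 923 TPM in L loin (-0.23, adjusted p = 0.763) and TNNI1 at 2673 TPM in ET and 2479.6 TPM in L loin (0.14, adjusted p = 0.852). Within both types the slow genes varied between animals, from -1.01 (S0242) to 0.81 (S0235) in ET and from -0.72 (S0384) to 0.73 (S0349) in L loin as mean deviations on the log2 scale. ACTA1 (skeletal alpha-actin), 1 of the most abundant transcripts, was higher in ET, at 18862, 17773, 23949.8, 16424 and 21597 TPM in ET loin and at 13566, 8656, 8726 and 3581 TPM in L loin (log2 fold change 1.33, SE 0.35, adjusted p = 0.0204). The L animals ran from S0385 at the low end to S0349 at the high end, all under the ET animals, and ACTA1 did not pass without S0326. NEB (nebulin, the thin filament ruler) was lower with deposited TPM (-0.71) and did not pass with scaling (-0.48, adjusted p = 0.184).

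Of 17 calcium handling genes 3 were higher (PVALB, CASQ1 and SRL) and 5 lower with deposited TPM, a share of lower genes near the 22.1% of all genes. With scaling 4 were higher and 3 lower. The number higher with deposited TPM was 1 without S0242, S0377 or S0385. The lower ones were led by the voltage sensor CACNA1S at 140.4 ± 32.05 TPM in ET loin and 299.6 ± 13.01 TPM in L loin (log2 fold change -1.12, SE 0.18, adjusted p = 0.00349), the release channel RYR1 at 447 ± 115 TPM in ET loin and 955 ± 56.3 TPM in L loin (-1.13) and JSRP1, which joins them at the triad, at 287 ± 57.5 TPM in ET loin and 639 ± 107 TPM in L loin (-1.16), and none of the 3 overlapped. ATP2A1, the calcium pump of fast fibres, was at 2516 TPM in ET and 3848 TPM in L loin (-0.62, adjusted p = 0.0591). Of 8 genes of the neuromuscular junction 1 was higher and 5 were lower (1 and 2 with scaling), with a median of -0.73 (-0.53 with scaling), and 3 were lower without S0377. CHRNB1, a subunit of the acetylcholine receptor, averaged 20.4 ± 4.22 TPM in ET loin and 39.7 ± 4.74 TPM in L loin (log2 fold change -0.94, SE 0.17, adjusted p = 0.00515). RUNX1, a transcription factor induced by loss of nerve contact, stood at 0.535, 0.681, 0.676, 0.555 and 1.16 TPM in ET loin and at 1.07, 3.504, 3.78 and 4.06 TPM in L loin (-1.18, adjusted p = 0.0100), with S0349 inside the ET range. ACHE, the enzyme that breaks down acetylcholine, was the 1 higher gene (0.74) and passed in 2 of the 9 fits that left out a library. Of 16 myogenic and developmental genes 2 were higher (MSTN and FST) and 4 lower (3 with scaling). The number higher was 4 without S0349 and 1 without S0377. The lower genes included the transcription factor MEF2D at 38.1 ± 5.69 TPM in ET loin and 74.7 ± 7.72 TPM in L loin (log2 fold change -0.96, SE 0.15, adjusted p = 0.00332). MYOD1 was at 8.55 TPM in ET and 4.56 TPM in L loin (0.85, adjusted p = 0.0742) and MYOG at 68.3 TPM in ET and 53.5 TPM in L loin (0.62, adjusted p = 0.238). Cell division genes were near the detection threshold, with 2 of 15 tested and 0 called.

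Among genes of nucleotide, amino acid and ketone metabolism single members differed widely between the types. AMPD3, an AMP deaminase that converts AMP to IMP and is on none of the lists, had the largest drop of all named genes, at 3.71, 3.54, 3.35, 7.74 and 4.23 TPM in ET loin and at 95.2, 141, 54.02 and 212 TPM in L loin. The highest ET value, in S0309, was far below the lowest L value, in S0384 (log2 fold change -4.40, SE 0.35, adjusted p = 0.000289). The main muscle isoform AMPD1 was at 501 TPM in ET and 618 TPM in L loin (-0.37, adjusted p = 0.329). ABAT, which breaks down GABA, stood at 0.517, 5.32, 1.01, 7.95 and 1.095 TPM in ET loin and at 19.4, 46.1, 19.001 and 25.8 TPM in L loin (log2 fold change -3.04, SE 0.51, adjusted p = 0.00389). BDH1, the ketone body dehydrogenase (-1.20), and ALDH6A1, of valine breakdown (-1.31), were also lower, while BCAT2, which starts branched-chain amino acid breakdown, was higher (0.88). That list of 16 genes had 3 higher and 3 lower (4 and 3 with scaling), and 1 was higher without S0326 or S0385.

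Of 13 lipolysis and lipid droplet genes 3 were lower on both scales, a share near that of all genes with deposited TPM (22.1%). The list's median of -0.24 (-0.05 with scaling) was also near that of all genes, -0.22 (-0.03). PNPLA2 (the triglyceride lipase ATGL) stood at 101, 61.1, 110.4, 92.02 and 64.3 TPM in ET loin and at 244, 259.5, 187 and 329 TPM in L loin (log2 fold change -1.57, SE 0.22, adjusted p = 0.00238). LPIN1, a phosphatidate phosphatase, stood at 30.1, 42.2, 36.5, 46.3 and 29.98 TPM in ET loin and at 115, 198, 108 and 387 TPM in L loin (log2 fold change -2.24, SE 0.33, adjusted p = 0.00292), and the hormone-sensitive lipase LIPE averaged 13.9 ± 7.01 TPM in ET loin and 61.2 ± 36.8 TPM in L loin (-2.02). In these 3 genes no ET animal reached the L values. The droplet coat genes PLIN2 (0.05) and PLIN5 (-0.02) did not pass. Of 15 genes of fatty acid synthesis ACACB (-1.21) and ACLY (-0.80) were lower on both scales, though ACLY did not pass without S0326 or S0377. Of 27 genes of fatty acid oxidation 1 was higher and 2 lower (2 and 0 with scaling), the lower count being 4 without S0235 and 0 without S0242, S0326, S0349, S0377 or S0385. The gate of fatty acid entry into mitochondria, CPT1B, was at 72.4 TPM in ET and 75.5 TPM in L loin (-0.16, adjusted p = 0.695) and UCP3 at 295 TPM in ET and 178 TPM in L loin (0.88, adjusted p = 0.0564).

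Of 20 glycolysis genes 2 were higher (LDHA and LDHB) and 2 lower (PDK4 and PFKFB1) with deposited TPM, and 3 were higher and 1 lower with scaling. Neither direction had a call without S0377 or S0385. LDHA (lactate dehydrogenase of fast muscle) averaged 10698 ± 2919 TPM in ET loin and 5443 ± 2388 TPM in L loin (log2 fold change 1.06, SE 0.36, adjusted p = 0.0480) and passed in 2 of the 9 fits that left out a library. Over all genes 5.26% were higher and 22.1% lower with deposited TPM (9.05% and 11.5% with scaling). Of 17 glycogen genes 2 were higher and 6 lower with deposited TPM but 2 and 1 with scaling, and without S0377 they were 0 and 1. The 1 gene lower on both scales was EPM2A (laforin, a glycogen phosphatase), at 31.9 ± 7.17 TPM in ET loin and 57.997 ± 6.099 TPM in L loin (-0.87). PPP1R3D, which targets a phosphatase to glycogen, was higher at 17.8 ± 3.62 TPM in ET loin and 5.86 ± 4.71 TPM in L loin (1.76), though not without S0377. STBD1, which tethers glycogen to membranes, was higher as well (1.23) and passed in 3 of the 9 fits that left out a library. PYGM, the muscle glycogen phosphorylase, was at 7764 ± 2220.0 TPM in ET loin and 12812 ± 1849 TPM in L loin (-0.76, adjusted p = 0.0497, and 0.183 with scaling). Of 27 nuclear genes of the respiratory chain and citrate cycle only CYCS (cytochrome c) was higher with deposited TPM (0.52), passing in 4 of the 9 fits that left out a library, and 6 genes were higher with scaling. Mitochondrially encoded genes took 6.20% to 14.3% of the TPM in ET and 6.97% to 15.1% in L loin, and 0 of 9 passed with limma on either scale.

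**Figure D4:**
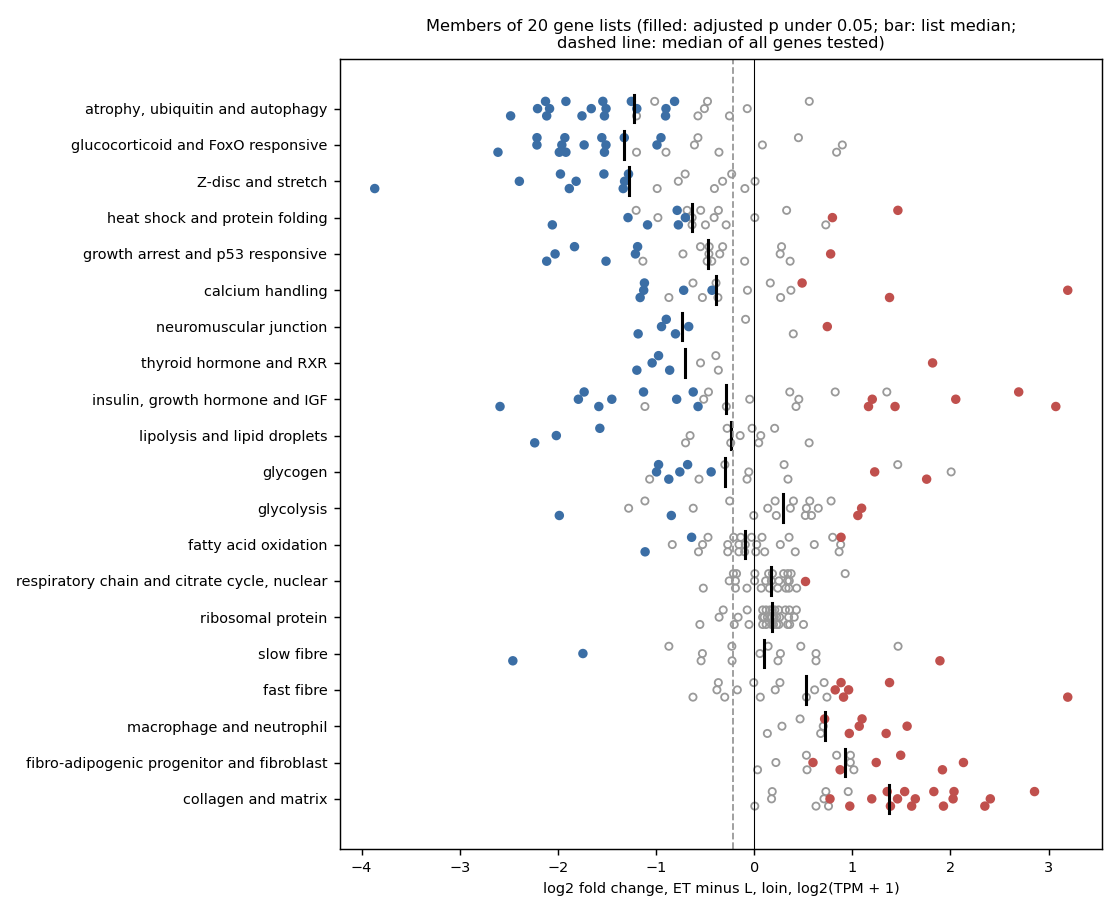
Each point is a tested gene of 1 of 20 lists, at its log2 fold change of ET minus L in loin from deposited TPM, filled where the adjusted p was under 0.05 (red higher, blue lower in ET) and open elsewhere. Black bars are list medians and the dashed line is the median of all genes tested, -0.22. The medians of breakdown (-1.23), glucocorticoid (-1.32), and Z-disc and stretch genes (-1.28) lie at the low side and that of matrix genes (1.37) at the high side.

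Of the 38 lists, that of the collagen matrix had the most members higher in ET loin. This ranking too is no independent test, since the lists were chosen with earlier results known. In whole tissue more cells of a type and more RNA per cell cannot be told apart, which holds for all results that follow. Of 24 tested of 26 on the list, 16 were higher and 0 lower (17 and 0 with scaling), with a median of 1.37 (1.57 with scaling), where all genes had -0.22 (-0.03). SPARC, a collagen-binding glycoprotein, stood at 229, 144, 87.5, 98.2 and 143 TPM in ET loin and at 44.7, 31.01, 37.2 and 25.98 TPM in L loin, without overlap (log2 fold change 1.93, SE 0.27, adjusted p = 0.00234). COL3A1 (collagen III) stood at 149, 129, 19.2, 70.6 and 99.4 TPM in ET loin and at 10.97, 8.24, 21.7 and 4.27 TPM in L loin. ET animal S0276 lay below L animal S0384 (log2 fold change 2.86, SE 0.57, adjusted p = 0.00677). The same pair of animals overlapped in COL1A2 (2.41), whereas COL1A1 (25.7 ± 15.3 TPM in ET loin and 4.87 ± 2.01 TPM in L loin, 2.03) did not overlap. The proteoglycans that space collagen fibrils were higher as well, with BGN (biglycan) at 6.22 ± 2.34 TPM in ET loin and 2.02 ± 0.348 TPM in L loin (log2 fold change 1.20, SE 0.24, adjusted p = 0.00765), LUM (lumican) at 43.7 ± 21.2 TPM in ET loin and 8.65 ± 2.91 TPM in L loin (2.04) and DCN (decorin) at 381 ± 177 TPM in ET loin and 111 ± 32.6 TPM in L loin (1.60). FMOD (fibromodulin) had a log2 fold change of 1.53. DCN did not pass without S0326 or S0377. SERPINH1, the collagen chaperone in the heat shock list, was at 21.3 ± 9.58 TPM in ET loin and 6.73 ± 2.17 TPM in L loin (log2 fold change 1.46, SE 0.31, adjusted p = 0.00872). The basement membrane collagens COL4A1 (0.18) and COL4A2 (0.01) and NID1 (0.18) did not pass.

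The matrix count rested partly on single animals. It was 10 without S0377 and 20 without S0276. In 5 of the 24 genes every ET library lay above every L library, which was so for 3.66% of all genes. As a mean deviation on the log2 scale the list stood at 1.29, 0.93, -0.59, 0.47 and 0.82 in the ET animals and at -0.85, -0.93, -0.35 and -0.79 in the L animals, so S0276 was inside the L range. The list's summed level was 399 to 1727 TPM in ET loin and 309.2 to 488 TPM in L loin. With the S0355 library, whose matrix sum was 7553 TPM, 0 of the genes passed.

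Markers of several cells other than muscle fibres were higher in ET loin as well. Of 14 markers of fibro-adipogenic progenitors and fibroblasts 6 were higher in ET and 0 lower (9 and 0 with scaling), and the number was 3 without S0326, 2 without S0377 and 11 without S0276. Their summed level was 262 to 971 TPM in ET and 430.1 to 559 TPM in L loin, or 70.5 to 229.8 and 51.0 to 93.4 TPM without GSN, which is not limited to these cells. PI16, a marker of progenitor fibroblasts, stood at 23.3, 10.8, 6.28, 13.04 and 12.1 TPM in ET loin and at 1.88, 3.82, 2.899 and 1.67 TPM in L loin (log2 fold change 1.92, SE 0.31, adjusted p = 0.00356), and THY1 averaged 19.9 ± 9.35 TPM in ET loin and 3.703 ± 2.299 TPM in L loin (log2 fold change 2.13, SE 0.40, adjusted p = 0.00549). PDGFRA, the defining receptor of these cells, was at 6.999 TPM in ET and 2.73 TPM in L loin (0.98, adjusted p = 0.0529). Of 11 macrophage and neutrophil markers tested of 16 matched, 6 were higher and 0 lower (7 and 0 with scaling), with summed levels of 47.0 to 115 TPM in ET and 26.7 to 46.9 TPM in L loin. The complement gene C1QB stood at 27.02, 24.95, 9.23, 20.4 and 21.7 TPM in ET loin and at 3.61, 5.05, 7.87 and 8.47 TPM in L loin (log2 fold change 1.56, SE 0.31, adjusted p = 0.00700). Haemoglobins were higher, HBB at 50.7, 18.9, 53.3, 23.996 and 56.7 TPM in ET loin and at 8.84, 1.83, 9.82 and 2.24 TPM in L loin (log2 fold change 2.77, SE 0.47, adjusted p = 0.00401) and HBA at 16.2 TPM in ET and 1.96 TPM in L loin (2.38), and the 4 red cell markers summed to 28.8 to 92.8 TPM in ET and 3.10 to 12.8 TPM in L loin. Of 9 smooth muscle and pericyte markers tested, only 2 were higher and 0 lower on both scales. Leaving out single libraries left 1 to 3 of them higher. The calponin CNN1, of smooth muscle, was at 15.2, 20.7, 21.3, 35.8 and 32.7 TPM in ET loin and at 3.48, 3.36, 7.75 and 1.74 TPM in L loin (log2 fold change 2.43, SE 0.33, adjusted p = 0.00222), while the smooth muscle myosin MYH11 was at 2.29 TPM in ET and 2.27 TPM in L loin (-0.04).

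Among the other cell types, most endothelial, T, NK and B cell markers were at similar or low levels. Some adipocyte and Schwann cell markers were higher in ET loin. Of 16 endothelial markers SOX18 was higher (0.68, in 2 of the 9 fits that left out a library) and the others did not pass with deposited TPM, with PECAM1 at 26.2 TPM in ET and 26.4 TPM in L loin (-0.01). Of 17 adipocyte markers matched 7 reached the filter, and CFD (1.46) and AQP7 (0.99) were higher, AQP7 not without S0385, while ADIPOQ was at 0 to 4.203 TPM in the 9 libraries. Of 15 T, NK and B cell markers 2 reached the filter and 0 passed, and MS4A1 was at 0 in all 9. Of 5 Schwann cell and myelin markers tested 2 were higher, PMP22 among them (20.5 ± 4.59 TPM in ET loin and 11.3 ± 2.196 TPM in L loin, 0.80). The part of these cells in the matrix result was not tested.

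Stress and defence genes were mixed, where 5.26% of all genes were higher and 22.1% lower (9.05% and 11.5% with scaling). Of 20 growth arrest genes 1 was higher and 6 lower on both scales, led by the cell cycle inhibitor CDKN1A (p21) at 94.99, 51.7, 45.5, 106 and 143 TPM in ET loin and at 391, 374, 265 and 314 TPM in L loin. No ET animal reached the lowest L animal, S0384 (log2 fold change -2.03, SE 0.31, adjusted p = 0.00317). SESN1, which restrains growth signalling, averaged 98.6 ± 20.3 TPM in ET loin and 376 ± 171 TPM in L loin (log2 fold change -1.83, SE 0.29, adjusted p = 0.00352), and GADD45A 25.98 ± 8.98 TPM in ET loin and 148 ± 136 TPM in L loin (-2.11). CCNG1 was the 1 higher gene (0.78). Of 25 genes of antioxidant and ferroptosis defence 3 were higher and 8 lower (4 and 4 with scaling), and 5 were lower without S0309, S0326, S0377 or S0385. SRXN1 (sulfiredoxin, which restores peroxiredoxins) stood at 3.64, 2.25, 1.93, 2.099 and 2.31 TPM in ET loin and at 14.9, 23.5, 9.37 and 23.02 TPM in L loin (log2 fold change -2.38, SE 0.26, adjusted p = 0.00130), and AIFM2 (a ferroptosis suppressor) averaged 11.2 ± 3.19 TPM in ET loin and 46.4 ± 14.6 TPM in L loin (log2 fold change -1.94, SE 0.24, adjusted p = 0.00178). MGST2, a microsomal glutathione transferase, was higher at 50.8, 25.1, 44.1, 39.4 and 47.1 TPM in ET loin and at 10.9, 7.15, 15.8 and 4.44 TPM in L loin (log2 fold change 2.09, SE 0.31, adjusted p = 0.00291), as was PRDX6 (1.04), while GPX4 (-0.01) and SOD1 (-0.06) did not pass. Of 21 heat shock genes 2 were higher and 6 lower (3 and 3 with scaling), and 3 were lower without S0377. Without S0235, S0276, S0309, S0377 or S0385, 1 was higher. HSPB8, a small heat shock protein that works with autophagy, averaged 694 ± 84.4 TPM in ET loin and 1739.9 ± 527 TPM in L loin (log2 fold change -1.29, SE 0.21, adjusted p = 0.00357).

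Several of the genes with the largest differences belong to no list. Higher in ET were NREP, a neuronal regeneration-related protein, at 35.6, 37.97, 18.3, 35.7 and 60.2 TPM in ET loin and at 4.55, 1.71, 5.01 and 0.734 TPM in L loin (log2 fold change 3.35, SE 0.40, adjusted p = 0.00175), and GCHFR, which regulates tetrahydrobiopterin synthesis, at 6.47, 14.8, 15.3, 12.1 and 22.4 TPM in ET loin and at 1.197, 0.0791, 5.29 and 0 TPM in L loin (log2 fold change 2.86, SE 0.51, adjusted p = 0.00447). In both, no L animal reached the ET values. PLPP7 (2.40), HINT1 (2.41), GADL1 (2.83) and the methyltransferase METTL21E (2.74) were also among the 15 largest. Lower in ET were the glycosyltransferase GALNT15 at 5.29, 2.99, 2.17, 23.2 and 1.61 TPM in ET loin and at 19.6, 134, 70.3 and 646 TPM in L loin (log2 fold change -4.27, SE 0.89, adjusted p = 0.00840), with ET animal S0309 above L animal S0349. IL6R, the interleukin 6 receptor (-2.53), the palmitoyltransferase ZDHHC9 (-2.79), ARMC12 (-2.85), CCDC71L (-2.85), PRSS36 (-2.75), SAR1B (-2.64) and ZNF24 (-3.30) were lower. Of these 7, ARMC12 and ZDHHC9 passed in all 9 fits that left out a library, ZNF24 did not pass without S0377, PRSS36 not without S0385, and IL6R not without S0326 or S0377. CCDC71L passed in 5 of the 9 and SAR1B in 4. GADL1 did not pass without S0377.

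Tenderloin of the same 9 pigs served to ask where loin differs, and the tenderloin library of S0355 was left out with that pig. Within tenderloin 13 of 12692 genes were higher in ET (0.102%) and 3 lower (0.0236%). Of genes higher in ET loin on both scales, 606 of 638 (95.0%) had a fold change above 0 in tenderloin. Of those lower, 1197 of 1395 (85.8%) were below 0 there. Over all genes tested in both muscles, 53.8% were above and 46.2% below 0 in tenderloin. The same pigs gave both muscles, so these shares and list values in tenderloin are no independent repeat of those in loin. The median of all genes tested was -0.22 in loin, and that of the 12059 also tested in tenderloin was 0.04 there. The breakdown list had a median of -1.23 in loin and -0.57 in tenderloin, the glucocorticoid and FoxO list -1.32 and -0.59, the Z-disc and stretch list -1.28 and -0.45, and the matrix list 1.37 and 0.93. In tenderloin 0 members of the breakdown, the glucocorticoid and FoxO, and the Z-disc and stretch lists passed. There 2 of 24 matrix genes were higher and 0 lower.

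In a fit that left out the pairing of the muscles by animal, the type difference itself depended on the muscle in 57 genes of 12568. The ET minus L difference was higher in loin than in tenderloin in 8 (0.0637%) and lower in 49 (0.39%). With the animal as replicate block these counts were 73 (0.581%) and 879 (6.99%), with median-ratio scaling 1 (0.00797%) and 0, and with both 118 (0.94%) and 100 (0.797%). Without 1 animal at a time 1 to 5 higher and 1 to 23 lower genes passed. Of the 49, 48 had their highest group mean in L loin, 46 were also called in loin and 49 passed with the block. All 8 had their highest group mean in L tenderloin.

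CA3 had the most opposed pattern. It averaged 1862 ± 556 TPM in ET loin and 535 ± 311 TPM in L loin, and 418 ± 124 TPM in ET tenderloin and 2149.9 ± 1405 TPM in L tenderloin (type difference in loin minus that in tenderloin 4.10, SE 0.54, adjusted p = 0.00615 with limma, 4.33e-05 with the block), and it was the 1 gene that passed with scaling (adjusted p = 0.00526). Its level was thus high in ET loin and L tenderloin, and low in L loin and ET tenderloin. MGST2 averaged 41.3 ± 9.95 TPM in ET loin and 9.57 ± 4.91 TPM in L loin, and 31.4 ± 9.67 TPM in ET tenderloin and 50.5 ± 32.7 TPM in L tenderloin (2.60, adjusted p = 0.0466). Genes high in L loin alone included the phosphatase DUSP26, at 395 ± 102 TPM in ET loin and 1305 ± 217 TPM in L loin, and 317 ± 57.6 TPM in ET tenderloin and 306 ± 59.6 TPM in L tenderloin (-1.80, adjusted p = 0.0201). The Wnt co-activator PYGO1 averaged 12.5 ± 1.76 TPM in ET loin and 42.9 ± 9.76 TPM in L loin, and 13.3 ± 3.23 TPM in ET tenderloin and 11.5 ± 4.49 TPM in L tenderloin (-1.93). ANO6, a lipid scramblase, averaged 20.3 ± 1.97 TPM in ET loin and 55.1 ± 5.29 TPM in L loin, and 24.5 ± 4.34 TPM in ET tenderloin and 17.8 ± 5.07 TPM in L tenderloin (-1.87, adjusted p = 0.00615).

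The splicing factors MBNL1 (-1.54) and RBFOX1 (-1.26), GTPBP2 (-1.38), RNF166 (-1.21), GREB1L (-2.17) and CAST (-1.18) had the same direction. SOX6, a repressor of slow fibre genes, was lowest in L tenderloin: it averaged 7.24 ± 1.02 TPM in ET loin and 9.52 ± 2.64 TPM in L loin, and 5.35 ± 0.567 TPM in ET tenderloin and 1.903 ± 0.765 TPM in L tenderloin (-1.49, adjusted p = 0.0266). Apart from CA3, none of the genes named so far for the 2 muscles passed with scaling alone (lowest adjusted p = 0.0532, for ANO6), and all of them passed with scaling and the block. Of the breakdown list CAST passed here, and 11 genes were lower with the block (3 with the block and scaling), among them FBXO32 at -1.69 (adjusted p = 0.215, 0.0139 with the block). PNPLA2, called in loin at -1.57, had a fold change of -1.50 in tenderloin that did not pass there (adjusted p = 0.0627), with 102 ± 32.8 TPM in ET tenderloin and 289 ± 88.97 TPM in L tenderloin (difference between muscles -0.07, SE 0.38).

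**Figure D5:**
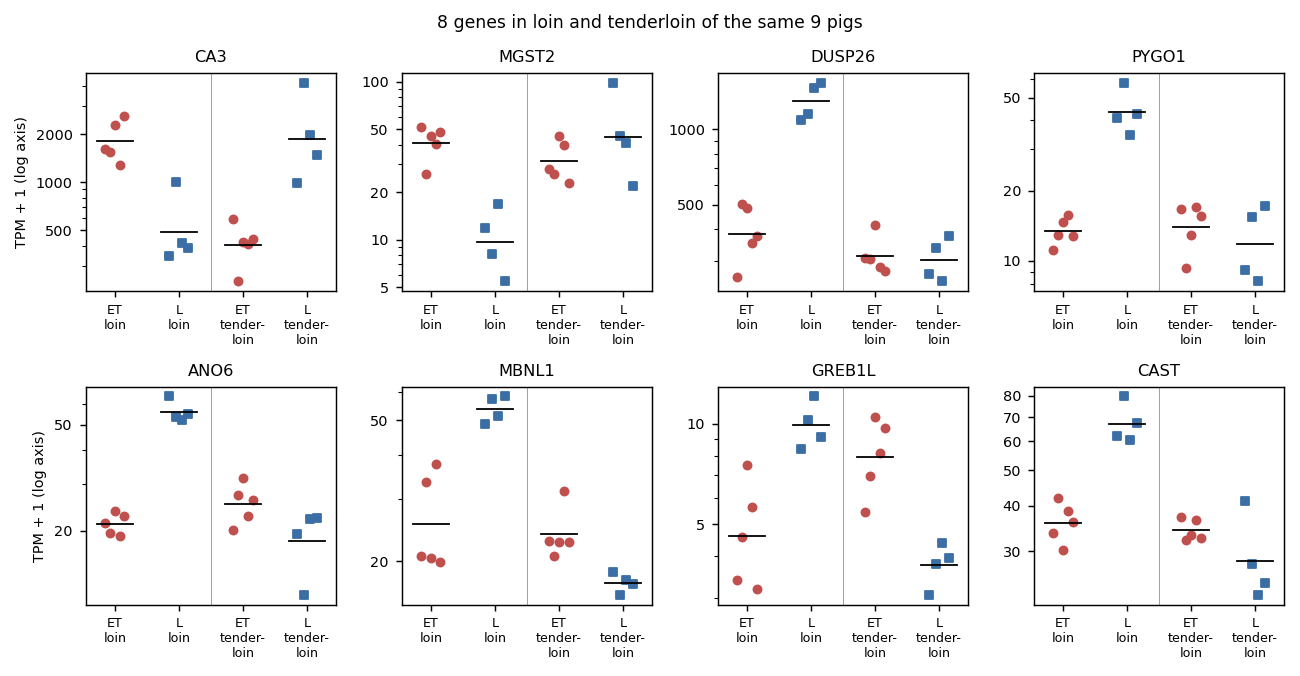
Each panel shows 1 gene with TPM + 1 on a log axis in ET loin, L loin, ET tenderloin and L tenderloin of the same 9 pigs (red circles ET, blue squares L, bars for means on the log scale). CA3 is highest in ET loin and L tenderloin, and DUSP26, PYGO1, ANO6, MBNL1 and CAST are highest in L loin.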

How the data were processed

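Total RNA was extracted with TRIzol and libraries were made with a TruSeq stranded mRNA kit, per the labels' protocols. The values are the authors' deposited TPM (length-normalised shares that sum to 1000000 in each library) of assembled transcripts. Trimmomatic 0.36, Salmon 1.10.0 and the assembly Sscrofa11.1 are named, per the submitters' processing notes, without a role for that assembly, and how the transcripts were assembled is not stated in the labels. The deposited annotation pairs transcripts with Swiss-Prot matches, and its percent identity and E value columns are used as the authors' values. TPM holds no counts, so no count model was run, and neither depth nor counting error is known.

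Of 57085 transcripts, 32222 were summed into 17571 protein entries by their top match at an E value of at most 1e-10. The median identity was 92.8%. Of the 24863 others, 20601 had no match, 2813 matched a repeat element, 29 matched an entry outside animals and 1420 exceeded the E value. Entries are named by gene symbol, and copies from near-identical families (haemoglobins, myosins) may be divided between entries.

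Genes with a mean of at least 1 TPM over the libraries of a fit were tested with limma 3.58.1 (R 4.3.3) with an intensity trend on log2(TPM + 1), ET minus L, with Benjamini-Hochberg adjustment over all of them. The tests were repeated with median-ratio scaling. The fits were also run on simulated data with known changes. Noise there was independent for each gene and library, without shared animal effects or a shift in scaling between types. No conclusion is drawn from it here. The comparison of muscles used 18 libraries of 9 animals. Loin and tenderloin libraries of the same number came from the same animal, and their deviations from group means correlated at 0.415 to 0.667 (median 0.516 over 12568 genes). Tables were handled with Python 3.11.15, pandas 2.3.3, numpy 2.4.6, scipy 1.17.1 and matplotlib 3.10.9.

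The 38 lists held 679 genes, of which 650 were matched. Members and lists were chosen with earlier results of these data known. Genes named were the 15 with the largest change in each direction (called on both scales, at least 5 TPM), up to 4 members per list by p, 2 abundant members where fewer than 2 were called, the 10 clearest differences between muscles and genes of earlier results. Further list members were named for their role after their values were seen, and part of the genes selected this way go without mention. A few list members are counted but not reported by name here.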

Additional observations from a re-analysis of the deposited data

Results flagged for a closer look

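In 13 of 266 groups of a gene's values, 1 animal stood apart from the rest of its type, where chance alone gives about 1 group in 20. The numbers that follow are the gap to the nearest other animal as a share of the group's whole range. In L loin, S0385 was the low value of ANKRD1 (0.931), and S0349 was the low value of RUNX1 (0.87) and SAR1B (0.868). SAR1B, a GTPase of vesicle transport, stood at 3.18 TPM in S0349 and at 60.0 to 90.7 TPM in the other 3 L animals.

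In ET loin, S0276 was the low value of the complement genes C1QB (0.731) and C1QC (0.812) and the high value of KEAP1 (0.749). S0309 was the high value of AMPD3 (0.737) and PRSS36 (0.731), S0326 the low value of GLUL (0.729) and the high value of RUNX1 (0.733), S0242 the low value of CSRP3 (0.735), and S0235 the low value of NEB (0.776) and the high value of SRXN1 (0.737). NEB stood at 660.4 TPM in S0235 and at 1175 to 1387 TPM in the other 4 ET animals.

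The ET minus L difference depended on the muscle in 13 of the genes named, by limma's test of the difference itself without pairing by animal. Loin minus tenderloin on the log2 scale, it was higher for CA3 (4.10), MGST2 (2.60) and AQP7 (2.07). It was lower for GREB1L (-2.17), PYGO1 (-1.93), ANO6 (-1.87), DUSP26 (-1.80), MBNL1 (-1.54), SOX6 (-1.49), GTPBP2 (-1.38), RBFOX1 (-1.26), RNF166 (-1.21) and CAST (-1.18). With median-ratio scaling and no replicate block CA3 alone passed.

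The loin library of S0355, which is outside the main comparison, held ADIPOQ, the adipocyte hormone, at 1139 TPM, where the 9 other loin libraries had 0 to 4.203 TPM.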

How the results depend on the processing

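The count of genes differing between ET and L loin depended on scaling, on single animals and on the loin library of S0355. With median-ratio scaling 1108 genes were higher in ET and 1411 lower, and after rescaling without the 50 most abundant and the mitochondrial genes 1037 and 1462. A minimum of 5 TPM left 419 higher. Adding S0355 gave 534 genes (47 and 487), and with scaling 25 (16 and 9). A pair of alternatives was chosen after seeing the data. Scaling over genes of at least 5 TPM gave 1454 and 959, which turned the direction of the split, and summing by protein mnemonic with scaling gave 1117 and 1452. Leaving out 1 library gave 1771 to 3346 genes (296 to 746 higher, 1475 to 2794 lower), and with scaling 1082 to 2536 (461 to 1113 higher, 621 to 1449 lower). A pseudocount of 0.1, no filter, 1 transcript per gene, summing by protein mnemonic, an E value of 1e-05 and no intensity trend kept all 3 counts within 1.5 times. The 10 most abundant genes' share differed by 4.79 percentage points with S0355 (adjusted exact permutation p = 0.0317).

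For the difference between muscles, pairing by animal as replicate block gave 952 genes (73 higher, 879 lower), median-ratio scaling 1 (1 and 0), and both together 218 (118 and 100). Adding S0355 gave 10 (1 and 9), a pseudocount of 0.1 gave 18 (3 and 15), and leaving out 1 animal 2 to 27 (1 to 5, 1 to 23). In each case the cause was not tested.

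Of 145 called genes taken by the naming rule, none changed sign while S0355 stayed out. With scaling 14 of them no longer passed, and without S0377 40, without S0326 26 and without S0385 26. With S0355 the log2 fold change turned to -0.13 for AQP7, 0.53 for CACNA1S, 0.11 for CDH15, -0.078 for CD248, 0.49 for DES, 0.31 for DUSP26, 0.14 for EPM2A, 0.0068 for PFKFB1, 0.076 for GYS1, 0.70 for HSPB8, 0.70 for JSRP1, 1.04 for KLHL41, 1.33 for NEB, -0.13 for BGN, -0.12 for PSMB9, 0.19 for RBFOX1, 0.73 for RYR1, -0.56 for SOX18 and 0.72 for TCAP. With S0355 and scaling it was 0.73 for CACNA1S, 0.34 for CDH15, 0.75 for DES, 0.52 for DUSP26, 0.40 for EPM2A, 0.27 for PFKFB1, 0.42 for GYS1, 0.96 for HSPB8, 0.90 for JSRP1, 1.30 for KLHL41, 0.049 for MBNL1, 1.58 for NEB, 0.089 for RAPSN, 0.39 for RBFOX1, 0.98 for RYR1, -0.24 for SOX18 and 1.04 for TCAP. TPM keeps no depth, so the counting error of low genes is not known.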

Other observations

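Nuclear receptors of the retinoid X family differed by member in loin. RXRA averaged 49.01 ± 15.8 TPM in ET loin and 97.9 ± 6.402 TPM in L loin (-1.04) and RXRB averaged 15.5 ± 0.957 TPM in ET loin and 31.6 ± 5.42 TPM in L loin (log2 fold change -0.97, SE 0.14, adjusted p = 0.00281, limma). Both are partners of many nuclear receptors, and neither overlapped between the types. RXRG, the member enriched in muscle, went the other way at 28.1, 83.8, 88.98, 32.6 and 48.01 TPM in ET loin and at 15.98, 6.27, 36.97 and 8.79 TPM in L loin (1.82, adjusted p = 0.0204), though not without S0377 or S0385. The corepressor NCOR1 (-0.86) and the thyroid hormone transporter SLC16A10 (-1.20) were lower, SLC16A10 not without S0377. The receptor THRA was at 21.3 TPM in ET and 28.01 TPM in L loin (-0.37, adjusted p = 0.144). Of 8 genes of this list tested, 1 was higher and 4 lower on both scales, and without S0377 these were 0 and 3.

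Of 15 genes of amino acid synthesis and the ATF4 response 2 were higher, PSPH and ASNS, and 3 lower (3 and 0 with scaling). PSPH, which makes the last step to serine, stood at 4.38, 5.36, 5.09, 5.75 and 7.85 TPM in ET loin and at 0.447, 0.254, 0.749 and 0.159 TPM in L loin, so that the lowest ET animal, S0235, lay far above the highest L animal, S0384 (log2 fold change 2.25, SE 0.19, adjusted p = 0.000289). ASNS, which makes asparagine, averaged 36.2 ± 19.97 TPM in ET loin and 9.26 ± 9.77 TPM in L loin (2.12, adjusted p = 0.0177), with overlap and not without S0377 or S0385. The 3 lower members, SHMT1, SHMT2 and SLC3A2, did not pass with scaling, and the lower count was 0 without S0385. In the cholesterol pathway 2 of 16 genes were higher and 0 lower (4 and 0 with scaling). Among the higher ones was IDI1, of the isoprenoid steps, at 112 ± 12.3 TPM in ET loin and 65.2 ± 16.7 TPM in L loin (log2 fold change 0.79).

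Clock genes had 3 higher and 2 lower of 19 (3 and 0 with scaling). BHLHE40 (0.52), HLF (1.17) and NFIL3 (1.61) were the higher ones, NR1D2 (-0.99) was among the lower ones, and 0 of the 19 passed without S0377. The core activator BMAL1 was at 8.403 TPM in ET and 10.03 TPM in L loin (-0.22). Of 15 hypoxia and vessel growth genes VEGFA was higher (62.1 ± 14.4 TPM in ET loin and 31.1 ± 14.5 TPM in L loin, 1.07), not without S0326 or S0377, and HMOX1 and KDM3A were lower with deposited TPM. Of 20 interferon response genes PSMB9 was higher (0.73). Of 34 ribosomal protein genes 0 passed with deposited TPM and 7 were higher with scaling, with a median of 0.18 (0.40 with scaling).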
